A study of Mus musculus with 6 samples.

Results

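The V(D)J recombinase genes considered here are Rag1, Rag2 and Dntt, 3 genes chosen by name. Each gene was to be read from its brightest probe set that carries a single gene symbol, and 22180 genes on the array had one. Of the 3 recombinase genes 2 are among them, Rag2 and Dntt, with 1 such probe set each. Rag1 had none: the probe set assigned to Rag1 is also assigned to its neighbour Iftap, so its signal cannot be credited to Rag1, and it is given below only as a shared probe set.

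RAG1 and RAG2 together form the endonuclease that cuts DNA at the recombination signal sequences flanking the V, D and J segments of immunoglobulin and T cell receptor genes. RAG1 carries the catalytic site and binds the signal sequence, and RAG2 is its essential partner and reads trimethylated lysine 4 of histone H3 through a PHD finger. Dntt encodes terminal deoxynucleotidyl transferase, which adds nucleotides without a template at the joints before they are sealed by non-homologous end joining. In the marrow these genes come on in early lymphoid progenitors, and a fraction of multipotent progenitors already transcribes them.

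Expression was measured on 6 Affymetrix Mouse Gene 2.0 ST arrays in LSK cells, the lineage-negative, Sca-1-positive, c-Kit-high bone marrow fraction that holds stem cells and multipotent progenitors. One group was 3 male mice with a tamoxifen-inducible conditional knockout of Ctcf (Ctcf cKO), and the other was 3 male WT mice, all 8 weeks of age. Both groups had a daily intraperitoneal dose of 2 mg tamoxifen over 3 days, and marrow was sorted 24 hours later. The labels call the arrays of a group biological replicates. The design text also names CreER mice, and whether the WT mice carried the recombinase, which cells express it and which Ctcf exons it removes were not stated in the labels. CTCF is the zinc finger protein that binds insulators and chromatin loop anchors.

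All levels are the authors' log2 probe set values, on which a difference of 1 is a 2-fold change. Across genes, which are no independent replicates, Pearson correlations were 0.986 to 0.989 for arrays of 1 group and 0.979 to 0.989 for arrays of different groups. Ctcf averaged 7.74 ± 0.14 in Ctcf cKO and 8.56 ± 0.19 in WT (SD, n = 3 each), a log2 difference of -0.82 with groups that did not overlap and a limma adjusted p of 0.104. Among markers of the sorted fraction, Kit averaged 10.15 ± 0.05 in Ctcf cKO and 10.38 ± 0.24 in WT, and Cd34 averaged 11.95 ± 0.14 in Ctcf cKO and 11.97 ± 0.05 in WT (SD, n = 3 each). The Kit groups did not overlap, as for 5.32% of all genes in this direction, with a limma adjusted p of 0.727. The array gives no detection call, so a low level is not shown to be absence. A level in sorted bulk cells also cannot tell fewer expressing cells from less RNA per cell.

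The promoter windows of the 3 genes are shown because Rag2, Dntt and the shared Rag1 probe set all had lower mean levels in Ctcf cKO. Each is the 250 bases before the annotated start in RefSeq's GRCm38.p6, written 5′ to 3′ on the gene's strand. Capitals mark the E-box CANNTG, the motif of E proteins such as TCF3, and CCCTC or its reverse complement GAGGG, the letters after which CTCF is named.
Rag1 (chr2:101649533-101649782, minus strand): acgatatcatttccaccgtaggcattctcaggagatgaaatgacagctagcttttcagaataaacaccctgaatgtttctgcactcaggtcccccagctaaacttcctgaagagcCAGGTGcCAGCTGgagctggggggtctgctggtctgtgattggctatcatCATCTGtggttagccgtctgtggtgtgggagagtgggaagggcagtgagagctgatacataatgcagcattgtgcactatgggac
Rag2 (chr2:101624462-101624711, plus strand): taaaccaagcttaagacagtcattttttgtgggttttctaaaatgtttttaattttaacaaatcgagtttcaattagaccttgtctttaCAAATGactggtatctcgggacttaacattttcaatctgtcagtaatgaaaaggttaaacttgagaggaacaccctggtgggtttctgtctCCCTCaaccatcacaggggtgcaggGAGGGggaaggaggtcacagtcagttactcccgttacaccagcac
Dntt (chr19:41029025-41029274, plus strand): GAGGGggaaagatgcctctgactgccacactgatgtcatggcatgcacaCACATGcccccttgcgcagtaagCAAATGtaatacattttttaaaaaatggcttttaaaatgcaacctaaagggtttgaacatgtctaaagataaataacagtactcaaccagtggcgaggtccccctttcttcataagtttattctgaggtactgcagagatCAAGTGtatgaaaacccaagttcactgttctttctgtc

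The Rag1 window held 3 E-boxes and no CCCTC on either strand. The Rag2 window held 1 E-box and 2 CCCTC matches, 1 on each strand, and the Dntt window held 3 E-boxes and 1 CCCTC match, on the minus strand. No match of either motif overlapped another. Such matches are common: of 32851 promoter windows of the same length, 66.2% held CANNTG and 60.5% held CCCTC on at least 1 strand. Of the other motifs searched on both strands, the ETS core GGAA was found 3 times in the Rag1 window, 2 times in that of Rag2 and 1 time in that of Dntt, and 93.4% of windows hold it. The forkhead motif TGTTTA and the IKAROS motif TGGGAA, which contains a GGAA, were each found 1 time in the Rag1 window and 0 times in the others, against 12% and 21.6% of all windows. The TATA box TATAAA, held by 12.4% of windows, was in none of the 3. These are letter matches in the window and not mapped binding sites.

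Of the 2 members measured, only Rag2, the partner subunit of the recombinase, was called lower in Ctcf cKO over all genes. Its log2 level was 6.51, 6.31 and 6.72 on the 3 Ctcf cKO arrays, against 8.35, 7.80 and 7.74 on the 3 WT arrays. All 3 Ctcf cKO arrays lay below all 3 WT arrays, and WT replicate 1 was the highest array. The means were 6.51 ± 0.21 in Ctcf cKO and 7.96 ± 0.33 in WT (SD, n = 3 each). The log2 difference was -1.45 (SE 0.18, 95% interval -1.87 to -1.04), or 36.6% of the WT level, with a limma adjusted p of 0.0455 by Benjamini-Hochberg over all genes. Among all 22180 genes, 0.0451% were called lower in the same test, and the Rag2 difference was number 16 counted from the most negative. An exact two-sided permutation test of the 3 and 3 arrays gave p = 0.1, the lower limit of this design. The call is close to its threshold: with 1 array left out at a time the difference stayed between -1.56 and -1.26, and the adjusted p lay between 0.0725 and 0.213, past the threshold in 0 of 6 fits. In the fit over all 41345 probe sets, where 0.00726% were called lower, the adjusted p of Rag2 was 0.275.

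Dntt, the template-independent polymerase, had log2 levels of 9.82, 10.45 and 10.46 on the Ctcf cKO arrays, against 10.63, 11.05 and 10.77 on the WT arrays. The groups did not overlap, but the gap was narrow, from 10.46 in the highest Ctcf cKO array to 10.63 in the lowest WT array, and Ctcf cKO replicate 1 stood well below the other Ctcf cKO arrays. Groups of this direction without overlap were seen for 5.32% of all genes. The means were 10.24 ± 0.37 in Ctcf cKO and 10.82 ± 0.22 in WT (SD, n = 3 each). The log2 difference of -0.57 (SE 0.19, 95% interval -1.01 to -0.13), or 67.2% of the WT level, did not pass over all genes (limma unadjusted p = 0.0165, adjusted p = 0.510). It was number 193 from the most negative of 22180 differences. Without Ctcf cKO replicate 1 the Dntt difference was -0.36, the smallest of the 6 fits with an array left out. In the other 5 fits it lay between -0.68 and -0.45.

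The difference of Dntt was smaller in size than that of Rag2. Taken within each array, Dntt minus Rag2 differed between Ctcf cKO and WT by 0.88 on the log2 scale, with an exact permutation p of 0.1 (two-sided, the lower limit of this test with 3 and 3 arrays). With 1 array left out the value lay between 0.59 and 1.09. Over the 6 arrays the log2 levels of Rag2 and Dntt had a Pearson r of 0.67, a description of 6 points in 2 groups. Ctcf cKO replicate 1, the lowest array for Dntt, was in the middle of its group for Rag2, and WT replicate 1, the highest array for Rag2, was the lowest WT array for Dntt.

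The probe set shared by Rag1 and Iftap had log2 levels of 5.53, 5.78 and 5.34 in Ctcf cKO, against 6.52, 6.25 and 5.98 in WT. The groups did not overlap, as for 5.53% of all probe sets in this direction. Its log2 difference in the fit over all 41345 probe sets was -0.70 (SE 0.18, 95% interval -1.13 to -0.27), or 61.5% of the WT level, with a limma unadjusted p of 0.00645 and an adjusted p of 0.71. A further probe set, shared by Rag2 and Iftap, read 4.86, 4.22 and 4.80 in Ctcf cKO, against 5.52, 5.51 and 5.26 in WT. Its groups did not overlap either, and its log2 difference was -0.80 (SE 0.20, limma adjusted p = 0.687). Iftap itself, on a probe set of its own, read 6.05, 6.26 and 6.38 in Ctcf cKO, against 6.01, 6.01 and 6.20 in WT. These groups overlapped, and the Iftap difference was 0.16 (SE 0.12, 95% interval -0.12 to 0.44, limma adjusted p = 0.814). Its sign was opposite to that of both shared probe sets, but its interval covers both signs. Mean levels over all arrays were 5.90 for the Rag1 and Iftap probe set, 5.03 for the Rag2 and Iftap probe set and 6.15 for Iftap. These are dim, below the median of all genes' means, 6.29. The share of Rag1 and of Iftap transcripts in the shared signals was not measured.

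**Figure D1:**
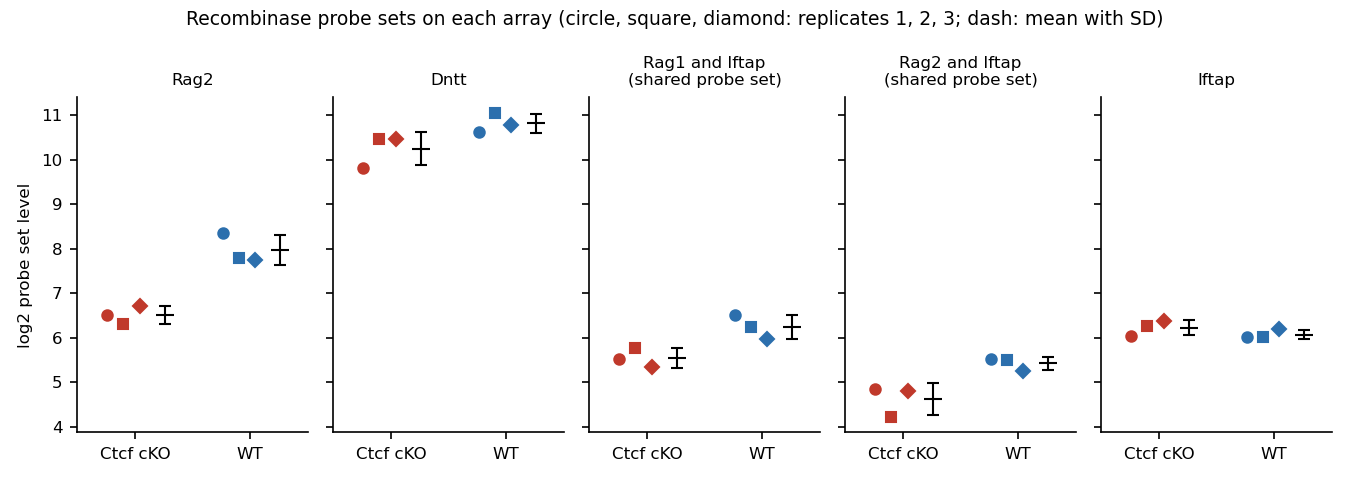
Log2 level of each probe set on each array, Ctcf cKO left of WT, with the mean and SD of 3 arrays beside the points. Rag2, Dntt and both shared probe sets have no overlap between groups, with Rag2 the most widely separated at means of 6.51 in Ctcf cKO and 7.96 in WT, while the Iftap groups overlap.

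**Figure D2:**
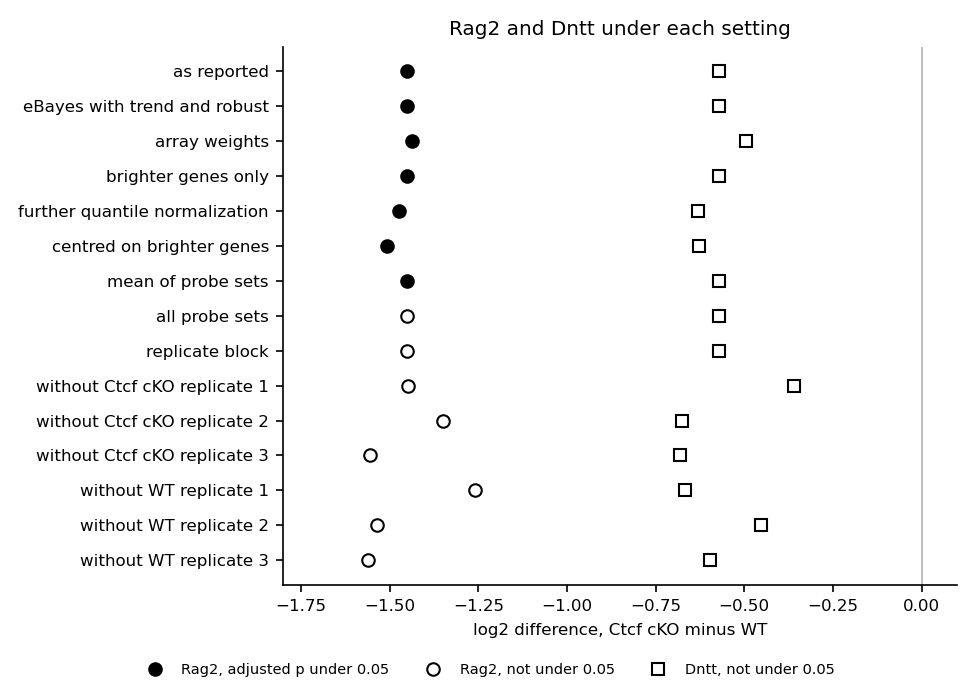
Log2 difference, Ctcf cKO minus WT, of Rag2 (circles) and Dntt (squares) as reported and under each of 14 other settings, filled where the limma adjusted p is under 0.05. Rag2 stays between -1.56 and -1.26 and is open wherever an array is left out, and Dntt stays between -0.68 and -0.36 and is open throughout.

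The genes next to the recombinase genes stayed closer to 0 than Rag2, and 1 of them, Pik3ap1, was near the difference of Dntt. Of the 5 annotated genes on either side of the Rag pair and of Dntt, 20 in all, 11 had a probe set with a single symbol. None passed over all genes by limma, where 0.0721% of all genes did; 5 had a negative and 6 a positive difference, and their median was 0.04, against 0.02 over all genes. The sign of that median was not stable, with values between -0.02 and 0.08 over the alternative settings. At an unadjusted p under 0.05 there was 1 lower and 0 higher of 11, where 3.08% and 5.03% of all genes were lower and higher.

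Around the Rag pair, Traf6, the ubiquitin ligase of Toll-like and interleukin-1 receptor signalling, averaged 7.55 ± 0.21 in Ctcf cKO and 7.51 ± 0.21 in WT (SD, n = 3 each), a log2 difference of 0.04 (95% interval -0.30 to 0.38). Prr5l differed by -0.19, Commd9 by 0.05 and Ldlrad3 by 0.11, with overlapping groups for each of them and limma adjusted p-values of 0.782 or more. The lowest end of the 95% intervals of these 4 genes and of Iftap was -0.48, for Prr5l, while the upper end of that of Rag2 was -1.04.

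Around Dntt, Pik3ap1, which encodes the BCAP adaptor that links the B cell receptor and Toll-like receptors to PI3 kinase, was the neighbour with the most negative difference. It read 8.75, 8.69 and 8.86 in Ctcf cKO, against 9.27, 9.42 and 9.07 in WT. The groups did not overlap, and the log2 difference of -0.49 (SE 0.12, 95% interval -0.77 to -0.21) did not pass over all genes (limma adjusted p = 0.346). The gene lies 4 places from Dntt, and the 3 genes between them had differences of -0.06 for Opalin, -0.05 for Tll2 and 0.21 for Tm9sf3, all with overlapping groups. On the other side, Blnk, the adaptor of pre-B cell receptor signalling, differed by -0.15 and Zfp518a by 0.14, again with overlap.

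**Figure D3:**
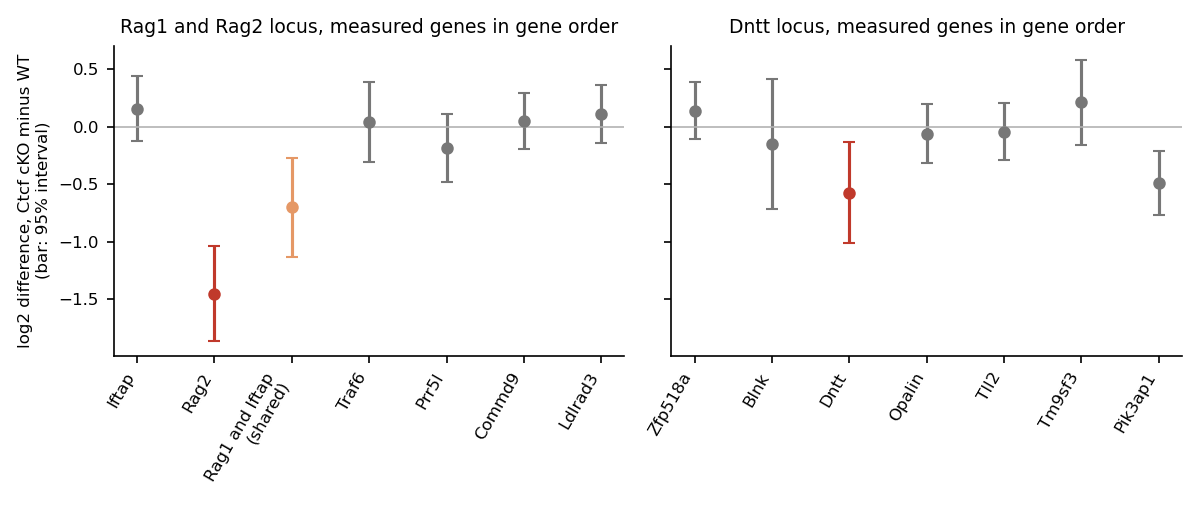
Log2 difference, Ctcf cKO minus WT, with its 95% interval for the measured genes around the Rag pair (left) and Dntt (right), in gene order and not to distance. Rag2 at -1.45 lies apart from Iftap at 0.16 and Traf6 at 0.04, and Dntt at -0.57 and Pik3ap1 at -0.49 are separated by 3 genes near 0. The probe set shared by Rag1 and Iftap, from the fit over all probe sets, is drawn beside Rag2.

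The breaks made by RAG are held, opened and sealed by the general end-joining machinery. The measured genes of it had estimated differences of at most 0.17 in size between Ctcf cKO and WT. Their 95% intervals reached further, to 0.50 for Aplf, 0.47 for Prkdc and -0.42 for Xrcc5. Of 15 genes in the list, 13 were measured, 0 passed by limma over all genes and 0 had an unadjusted p under 0.05, where 8.11% of all genes did. Differences were negative for 7 and positive for 6, between -0.10 and 0.17, with a median of -0.01 against 0.02 over all genes. The sign of that median was not stable, with 0.03 and 4 negative without WT replicate 2, and values between -0.06 and 0.03 over the alternative settings. The groups of all 13 overlapped. The Ku subunits Xrcc5 and Xrcc6 differed by -0.08 and -0.01, and the DNA-dependent kinase Prkdc by 0.08. The ligase Lig4 and its partners Xrcc4 and Nhej1 differed by 0.04, 0.05 and 0.08. The family X polymerases related to Dntt, Poll and Polm, differed by -0.01 and -0.10, and the 95% interval of Polm, -0.38 to 0.17, overlaps that of Dntt. Paxx, a Ku-binding factor, differed by -0.05, the end-processing factors Aptx and Aplf by -0.05 and 0.17, and the damage-response kinase Atm and the chromatin reader Trp53bp1 by -0.02 and 0.07. Dclre1c, the nuclease that opens hairpin ends, was not analysed here.

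Genes that assist RAG or set its turnover had differences of the opposite sign to Rag2. Of 10 genes 9 were measured, all 9 with positive differences and a median of 0.27, against 12122 of 22180 positive over all genes with a median of 0.02. With the other settings 7 to 9 were positive and the median lay between 0.21 and 0.31. None passed over all genes by limma, and at an unadjusted p under 0.05 there were 3 higher and 0 lower, where 5.03% of all genes were higher. Hmgb2, which bends DNA for the recombinase as Hmgb1 does, read 8.65, 9.10 and 8.63 in Ctcf cKO, against 8.29, 7.89 and 8.63 in WT. The lowest Ctcf cKO array and the highest WT array were equal to 2 decimals at 8.63, and the Hmgb2 difference was 0.52 (SE 0.20, limma adjusted p = 0.570), which was 0.33 without WT replicate 2. Hmgb1 differed by 0.27 with overlapping groups. Skp2, the ubiquitin ligase subunit through which RAG2 protein is removed as cells enter S phase, averaged 8.79 ± 0.28 in Ctcf cKO and 8.38 ± 0.05 in WT (SD, n = 3 each), a difference of 0.40 (SE 0.15, limma adjusted p = 0.551). Ccna2 and Cdk2, the cyclin and kinase that mark RAG2 for that removal, differed by 0.76 (SE 0.26) and 0.21 (SE 0.10), and Ccna2 by 0.45 without WT replicate 2. Ccna2, Cdk2 and Skp2 are also general cell cycle genes, and Hmgb2 is abundant in dividing cells.

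**Figure D4:**
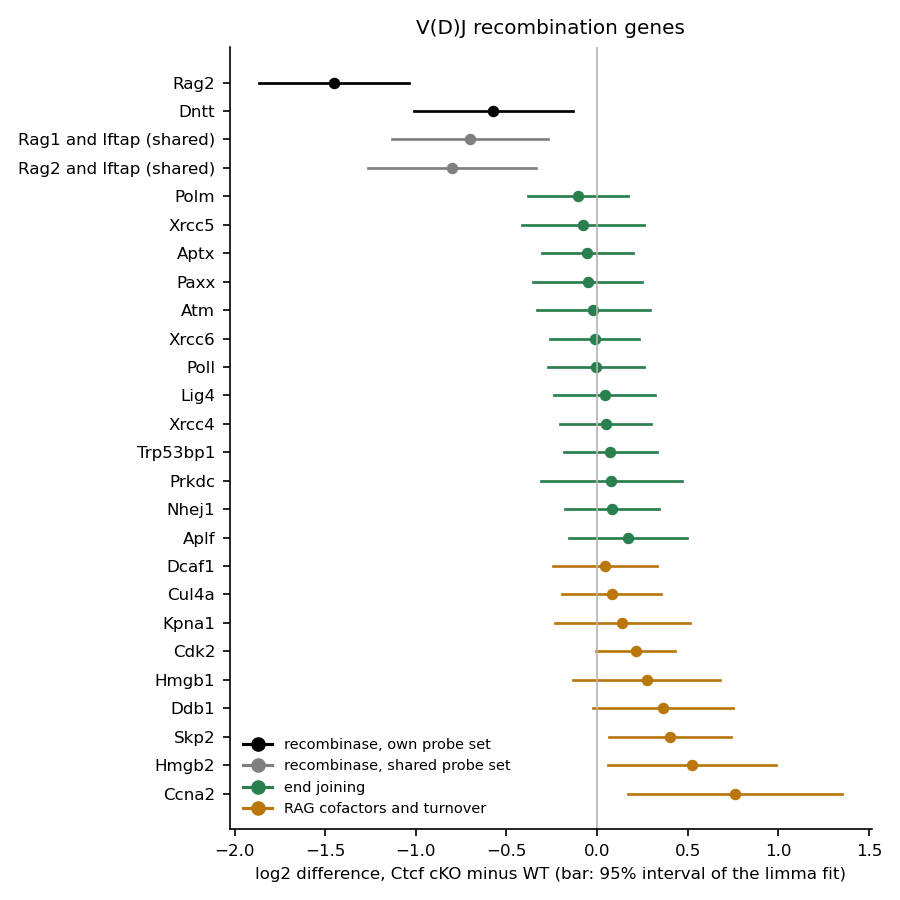
Log2 difference, Ctcf cKO minus WT, with its 95% interval for the recombinase probe sets, the end-joining genes and the RAG cofactors and turnover genes. The recombinase probe sets lie at -0.57 or lower, the end-joining genes lie between -0.10 and 0.17, and the cofactors between 0.04 and 0.76. Of the recombinase probe sets, 2 are shared with Iftap and come from the fit over all 41345 probe sets.

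Of 33 transcription factors that act on the Rag and Dntt loci or on lymphoid fate, 32 were measured and 0 passed over all genes by limma. Differences were negative for 25 and positive for 7, with a median of -0.10, where 45.3% of all genes were negative. Over the other settings 20 to 29 were negative, and the median was -0.15 without Ctcf cKO replicate 1 and -0.06 without Ctcf cKO replicate 2 or without WT replicate 1. At an unadjusted p under 0.05 there were 2 lower and 0 higher, where 3.08% of all genes were lower. These were Bcl11b, a T lineage factor, at -0.39 (SE 0.13, limma adjusted p = 0.520), and Satb1, a chromatin organiser of lymphoid progenitors, at -0.51 (SE 0.21, limma adjusted p = 0.584), which was -0.33 without WT replicate 2.

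Several factors with a direct link to Rag or Dntt transcription had differences between -0.13 and -0.01, in a list where 25 of 32 were negative. Other members of the list had larger negative differences, among them Ebf1 at -0.95, Satb1 at -0.51 and Foxp1 at -0.20, and 7 of the 32 were positive. Foxo1, an activator of the Rag genes in B cell progenitors, averaged 7.50 ± 0.06 in Ctcf cKO and 7.56 ± 0.11 in WT (SD, n = 3 each), a difference of -0.07 (95% interval -0.31 to 0.18). Tcf3, which encodes the E proteins E12 and E47, differed by -0.03 (95% interval -0.35 to 0.28), and Ikzf1, which encodes IKAROS, by -0.03 (95% interval -0.33 to 0.28). Spi1, which encodes PU.1, differed by -0.01 and Runx1 by -0.13 (95% interval -0.40 to 0.15), with overlapping groups for each.

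Ebf1, a B lineage factor, was the member of this list with the most negative difference. It read 5.50, 5.69 and 5.37 in Ctcf cKO, against 7.76, 5.76 and 5.90 in WT. The groups did not overlap, but WT replicate 1 alone was high and the other WT arrays lay close to the Ctcf cKO arrays. The Ebf1 difference was -0.95 (SE 0.45, limma adjusted p = 0.642). Lef1, a factor of B and T cell progenitors, had the same form, at 6.16, 6.17 and 6.13 in Ctcf cKO, against 7.55, 6.23 and 6.27 in WT. Pax5, the B lineage commitment factor, differed by -0.24 (SE 0.26) with overlap.

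The receptor that drives early lymphoid development also fell. Il7r, the interleukin-7 receptor chain, read 7.52, 7.60 and 7.74 in Ctcf cKO, against 9.93, 10.27 and 9.49 in WT, without overlap. Of the 14 measured of 17 in the interleukin-7 and FLT3 list, only Il7r passed over all genes by limma. Its log2 difference was -2.28 (SE 0.18, limma adjusted p = 0.00672). Its adjusted p was 0.0605 without Ctcf cKO replicate 1, with a difference of -2.23. Over all genes 0.0721% passed and 5.32% were lower without overlap. At an unadjusted p under 0.05 there were 2 lower and 0 higher of 14, where 3.08% of all genes were lower and 5.03% higher. Flt3, the receptor kinase of multipotent progenitors, averaged 10.95 ± 0.23 in Ctcf cKO and 11.37 ± 0.23 in WT (SD, n = 3 each), a difference of -0.42 (SE 0.16, limma adjusted p = 0.563), with overlap by less than 0.01, at 11.18 in both groups. The list's median was -0.08, with 9 negative and 5 positive, where 45.3% of all genes were negative. The median turned to 0.02 without Ctcf cKO replicate 1, while without WT replicate 2 it was near 0 with 7 negative and 7 positive. Stat5a and Stat5b, the transcription factors downstream of the receptor, differed by 0.05 and -0.04.

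Of 22 early lymphoid and pre-antigen-receptor genes, which act at the stages where RAG is used, 19 were measured and 0 passed over all genes by limma. Differences were negative for 16 and positive for 3, where 45.3% of all genes were negative. The median was -0.15 against 0.02 over all genes. At an unadjusted p under 0.05 there were 2 lower and 0 higher of 19, where 3.08% of all genes were lower and 5.03% higher. Over the other settings 13 to 18 were negative, and the median was -0.27 without WT replicate 3 and -0.25 without Ctcf cKO replicate 1. Igll1, the surrogate light chain component lambda 5, read 7.65, 6.51 and 6.26 in Ctcf cKO, against 11.01, 6.09 and 7.94 in WT, so that WT replicate 1 was far above and WT replicate 2 below all other arrays. Vpreb1, the other surrogate light chain component, differed by -0.12 (SE 0.19). Cd79a, the signalling chain of the pre-B and B cell receptor, differed by -1.25 (SE 0.50, limma adjusted p = 0.584) with overlap, by -0.79 without Ctcf cKO replicate 3 and by -0.81 without WT replicate 1. Gpr171 differed by -0.45 (SE 0.14, limma adjusted p = 0.489) without overlap.

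Markers of mature B and plasma cells, of which Cd79a, Cd79b and Pou2af1 are also in the early lymphoid list, differed in the same direction as Rag2 and Dntt. All 14 measured of 17 were lower on average in Ctcf cKO, where 45.3% of all genes were, and 0 passed over all genes by limma. Their median difference was -0.63 (-0.79 to -0.44 with 1 array left out, with 12 to 14 negative). At an unadjusted p under 0.05 there were 8 lower and 0 higher of 14, where 3.08% of all genes were lower. Their summed linear level was between 11257 and 19961 in Ctcf cKO and between 18643 and 30279 in WT, so the groups overlapped. The array median of the list, centred on each gene's mean, was -0.03, -0.04 and -0.67 in Ctcf cKO replicates 1 to 3, against 0.49, 0.57 and -0.23 in WT replicates 1 to 3. Ctcf cKO replicate 3 had the lowest B and plasma cell median of its group and the highest Rag2 level, while WT replicate 3 was the lowest WT array for both. Dntt was also highest of its group on Ctcf cKO replicate 3, at 10.459 against 10.453 on replicate 2, and WT replicate 3 was in the middle of its group. The probe set shared by Rag1 and Iftap was lowest on replicate 3 in both groups. Ighm, the heavy chain of IgM, averaged 13.21 ± 0.41 in Ctcf cKO and 13.85 ± 0.27 in WT, and Jchain, the joining chain of secreted IgM, 11.61 ± 0.69 in Ctcf cKO and 12.50 ± 0.59 in WT (SD, n = 3 each). The Jchain difference was -0.90, and it was -0.50 without Ctcf cKO replicate 3. Tnfrsf17, the plasma cell survival receptor BCMA, differed by -1.53 (SE 0.57, limma adjusted p = 0.556), and by -0.97 without Ctcf cKO replicate 3. Their part in the Rag2 and Dntt results was not tested.

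T cells also assemble their receptors with RAG, and the markers of T and innate lymphoid cells did not share a direction. Of 13 measured of 14, 7 were negative and 6 positive, with a median of -0.01 and 0 passing by limma. The sign of that median was not stable, at 0.03 without WT replicate 1 and 0.04 without WT replicate 3, and 5 to 8 were negative over the other settings. The CD3 chains Cd3d, Cd3e and Cd3g differed by -0.03, -0.23 and -0.14 with overlap. Their mean levels over all arrays, 4.94, 5.88 and 4.79, were below the median of all genes' means, 6.29. Of this list only Thy1, Cd5 and Nkg7 were above that median, so most of its signs come from dim probe sets. At an unadjusted p under 0.05 there were 0 lower and 1 higher of 13, where 5.03% of all genes were higher. The 1 higher gene was Nkg7, which encodes a granule protein of cytotoxic cells. Nkg7 averaged 10.92 ± 0.24 in Ctcf cKO and 10.24 ± 0.37 in WT (SD, n = 3 each), a difference of 0.68 (SE 0.20, limma adjusted p = 0.429). The summed linear level of all 13, of which Nkg7 makes up a large part, was between 2348 and 3040 in Ctcf cKO and between 1558 and 2163 in WT. Of 12 measured myeloid and erythroid markers, 7 were negative and 5 positive with a median of -0.18, and 0 passed. At an unadjusted p under 0.05 there were 4 lower and 0 higher of 12, where 3.08% of all genes were lower. The median was -0.09 without WT replicate 3 and -0.11 without Ctcf cKO replicate 3. Their summed linear level was between 1248 and 1726 in Ctcf cKO and between 1679 and 5272 in WT. Among these, the neutrophil granule genes Ngp, Camp and Ltf differed by -2.44, -1.46 and -1.04, with WT arrays far apart, for instance Ngp at 8.37, 8.01 and 7.46 in Ctcf cKO, against 11.49, 9.08 and 10.59 in WT. The neutrophil marker Ly6g went the other way, at 0.25 (SE 0.33). S100a8 and S100a9 differed by -0.52 and -0.74, and the groups of Ly6g, S100a8 and S100a9 each overlapped. Without WT replicate 2 Camp passed over all genes by limma, at -2.13 (adjusted p = 0.0381), and the differences of Ngp and Ltf were -3.10 and -1.58, while without WT replicate 1 that of Ltf was -0.54. The part of these markers in the Rag2 and Dntt results was not tested.

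Markers of the sorted fraction itself differed by -0.42 to 0.33. Of 10 measured of 12, 8 were negative and 2 positive, where 45.3% of all genes were negative, and 0 passed over all genes by limma. The median was -0.10, and it was -0.19 without WT replicate 3 and -0.06 without Ctcf cKO replicate 2. The most negative were Flt3 at -0.42, Cd27 at -0.30, Mecom at -0.28 and Kit at -0.22. Cd27 and Kit were lower without overlap, 2 of 10, where 5.32% of all genes were. Slamf1 was higher without overlap, a direction whose share over all genes was not counted. Slamf1, a marker of long-term stem cells, differed by 0.33 (SE 0.11, limma adjusted p = 0.532) and Procr by -0.03. Ly6a, which encodes the Sca-1 antigen used in the sort, was not analysed here.

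**Figure D5:**
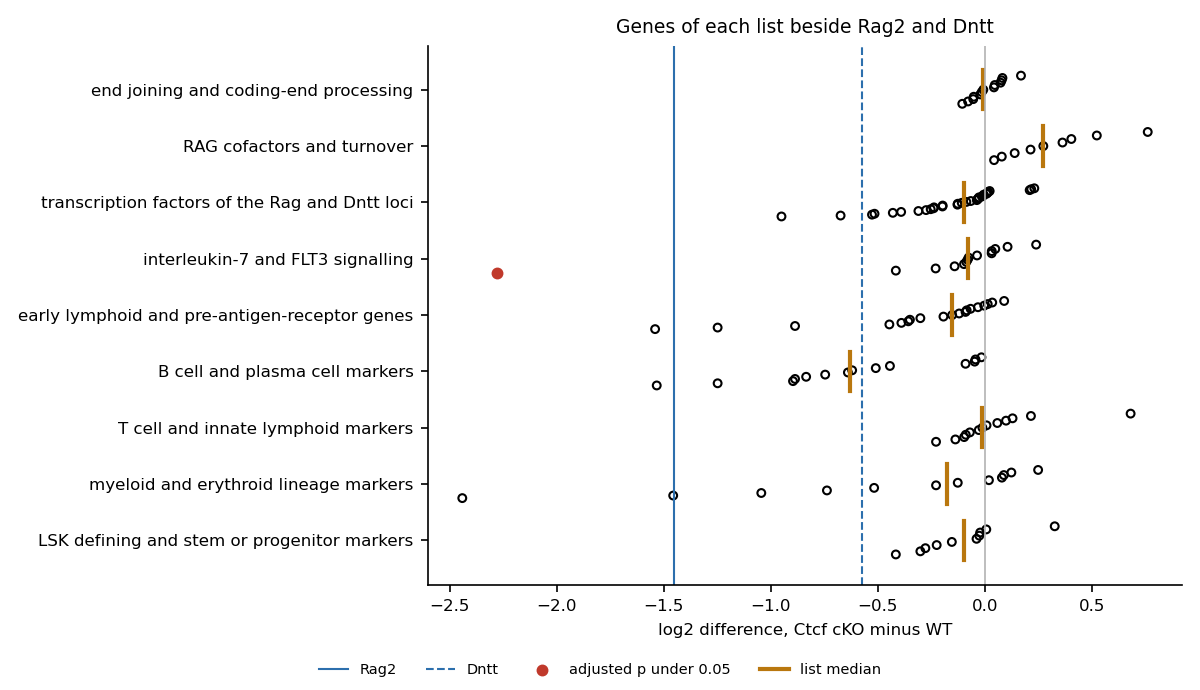
Log2 difference, Ctcf cKO minus WT, of each measured gene by list, with the list median as a bar and the Rag2 and Dntt differences as vertical lines. Il7r is the single list gene past the threshold, which 0.0721% of all genes passed. The end-joining genes crowd at 0, and the B and plasma cell markers have the lowest list median at -0.63.

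The genes whose levels followed each member most closely were sought among 10201 named genes above the median of all genes' means, 6.29, by Pearson r over the 6 arrays. The arrays form 2 groups, so the group difference enters r, and the values are a description with no test. For Rag2 they were Pacc1, an acid-sensing chloride channel (r = 0.996), Cnn3, an actin-binding calponin (r = 0.991), Mri1, an enzyme of methionine salvage (r = 0.983), and Krtap17-1 (r = 0.979). The correlations of their deviations within groups were between 0.861 and 0.956. These are no separate evidence, because r over the same arrays picked the 4 genes. Of these 4, Cnn3 came near Rag2 in size, at 8.77 in Ctcf cKO and 9.97 in WT, and it passed over all genes by limma (log2 -1.20, adjusted p = 0.0269). Pacc1 and Mri1 differed by -0.16 and -0.08 and did not pass. For Dntt they were Etnk1, an ethanolamine kinase (r = 0.983), Epha7, an ephrin receptor (r = 0.983), Lats1, a Hippo pathway kinase (r = 0.979), and Npepl1, an aminopeptidase (r = 0.969). None of these 4 passed over all genes by limma; Epha7 was nearest to Dntt in size at -0.52 (SE 0.15, adjusted p = 0.411).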

How the data were processed

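RNA of sorted LSK cells was hybridised to 6 arrays. The deposited values are log2 probe set levels made by the authors with RMA in the R package oligo, per the submitters' processing notes; its versions, probe annotation and build were not given in the sources used here. RMA normalizes arrays by quantiles and compresses differences of dim probe sets. Of 41345 probe sets, 23521 had 1 gene symbol in GEO's platform annotation, 1814 several and 16010 none here; 23328 matched RefSeq's GRCm38.p6 gene table by Entrez identifier. Each of 22180 genes was read from its brightest single-symbol probe set, with no filter on low values. This left Rag1 without a value of its own, so its planned test was run on the shared probe set, in a fit over all probe sets.

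The test of Ctcf cKO against WT was made in limma 3.58.1 under R 4.3.3 (lmFit, eBayes, group as the only term), with Benjamini-Hochberg adjustment over all features and a threshold of 0.05; exact two-sided permutation tests stand beside it. The fit was tested on simulated data. Members and gene lists were chosen with earlier results of these data known. Of 155 list entries 136 were measured. Genes named were the members and Ctcf, the end-joining genes, measured neighbours, a preset set of regulators and markers, list genes past the threshold, and up to 3 per direction and list with the largest differences at an unadjusted p under 0.05; other genes named were chosen after their values were seen, among them Lef1, Kit, Cd34, Procr, Cdk2, Stat5a, Stat5b and the CD3 chains. Promoter windows are RefSeq's. Same-numbered arrays of the groups correlated at 0.29, 0.02 and -0.14 in their deviations, so the numbers were not taken as pairs. Alternatives were other moderation, array weights, brighter genes, further quantile normalization, centring, the mean of probe sets, all probe sets, a block and each array left out. With 3 arrays a group, their number limits the precision.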

Additional observations from a re-analysis of the deposited data

How the results depend on the processing

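Rag2 kept its direction in all 14 alternatives and its adjusted p was under 0.05 in 6 of them. By limma it did not pass with all probe sets tested (-1.45, adjusted p = 0.275, with nearly 2 times as many features in the adjustment) or with the replicate number as a block (-1.45, adjusted p = 0.0956). Leaving out 1 array gave -1.56 to -1.26, and why the call was lost there, beyond the fewer arrays, was not tested. Dntt kept its direction and stayed short of the threshold in all 14, between -0.68 and -0.36, and with the block its adjusted p was 0.359. The shared Rag1 probe set stayed between -0.83 and -0.57 in 10 alternatives, added after the data were seen. Dntt minus Rag2 stayed positive in all 8. The number of genes called by limma, 16, became 25 with trend and robust moderation, 3 with all probe sets, 7 with the replicate block and 0 to 8 with 1 array left out. The 0, without Ctcf cKO replicate 1, goes with 1725 genes at an unadjusted p under 0.05. With the block Tnfrsf17 passed (adjusted p = 0.0357). Comparisons of Rag1 with Rag2 or Dntt were not run, as Rag1 has no probe set of its own. Scanner signals over background were not analysed here, so how far background limits the dim probe sets was not measured.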
